A study of Mus musculus with 3 samples.

Results

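The fibrinogen gene cluster on mouse chromosome 3 was examined as a window of 120 kb, from 82770000 to 82890000 (mm9), that holds Fgg, Fga and Fgb. Every HNF4A and FOXA2 peak that overlapped this window was taken, which gave 17 of the 21041 peaks of both factors. Of these, 9 came from the HNF4A list of 11703 peaks and 8 from the FOXA2 list of 9338 peaks. None of the 1263 input regions fell in the window, where 0.0248 would fall at their density over chromosome 3. The window was set by coordinates around the genes, and the locus was picked for description with earlier results of these lists known. Counts and scores below are therefore a description of these lists, without a test.

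The lists came from chromatin immunoprecipitation with sequencing (ChIP-seq) of wild-type C57BL/6 mouse hepatoblasts at embryonic day 14.5. The cells were taken from pooled livers and enriched with magnetic beads for the surface protein DLK1, and cells of other types kept by that enrichment would also contribute chromatin. Of 3 libraries, HNF4A antibody was used for the first and FOXA2 antibody for the next, and the last was sequenced from input chromatin that had not been precipitated. No library had a replicate, and because the lists hold no expression values, the labelled cell type could not be checked against its markers.

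Fibrinogen is the soluble plasma protein that thrombin turns into the fibrin of a clot. It is built from 3 kinds of chain, Aα, Bβ and γ, which are encoded by Fga, Fgb and Fgg, and hepatocytes make nearly all of it. The genes lie side by side, are transcribed together in liver, and are acute-phase genes that interleukin 6 induces. The nuclear receptor HNF4A maintains the expression of hepatocyte genes. FOXA2, of the forkhead family, can open chromatin at liver enhancers. The HNF1 and C/EBP families are known to act at fibrinogen promoters.

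In the RefSeq annotation of GRCm38.p6 the order along the chromosome is Lrat, Fgg, Fga, Fgb and Plrg1. Lrat, which esterifies retinol for storage, and Plrg1, a component of the splicing machinery, are the flanking protein-coding genes. Fgg and Fga are on the plus strand and Fgb is on the minus strand. The lower end of the gene span, at about 82811600 in mm9, is thus the start of Fgg, and its upper end, at about 82853800, is the start of Fgb. Fga lies between these ends, but neither it nor Plrg1 was placed on mm9 from an annotation, because none of that build was used here. If Fgg and Fga are spaced in mm9 as in GRCm38.p6, the start of Fga lies under the HNF4A peak at 82829560 to 82830262. A position between the ends is given below as a distance from the start of Fgg.

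The 250 bases upstream of each fibrinogen gene are shown because a peak lay over the start of Fgg and another over the start of Fgb. Fga is shown beside them as the remaining member, and by the GRCm38.p6 spacing its start also lay under a peak, of HNF4A. They are from RefSeq (GRCm38.p6), 5′ to 3′ on the strand of the gene. Fgg is on the plus strand (chr3:83007474-83007723), as is Fga (chr3:83025903-83026152), and Fgb is on the minus strand (chr3:83049864-83050113). Capitals mark matches to the motifs described next.
Fgg: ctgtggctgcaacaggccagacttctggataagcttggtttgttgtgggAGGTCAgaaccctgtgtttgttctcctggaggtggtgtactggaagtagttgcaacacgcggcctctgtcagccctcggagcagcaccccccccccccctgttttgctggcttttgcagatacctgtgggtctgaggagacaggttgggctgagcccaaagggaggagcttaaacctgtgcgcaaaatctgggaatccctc
Fga: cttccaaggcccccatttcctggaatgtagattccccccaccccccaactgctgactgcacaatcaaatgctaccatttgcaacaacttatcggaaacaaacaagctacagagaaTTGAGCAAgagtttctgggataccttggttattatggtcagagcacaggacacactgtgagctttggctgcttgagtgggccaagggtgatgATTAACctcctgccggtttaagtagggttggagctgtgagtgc
Fgb: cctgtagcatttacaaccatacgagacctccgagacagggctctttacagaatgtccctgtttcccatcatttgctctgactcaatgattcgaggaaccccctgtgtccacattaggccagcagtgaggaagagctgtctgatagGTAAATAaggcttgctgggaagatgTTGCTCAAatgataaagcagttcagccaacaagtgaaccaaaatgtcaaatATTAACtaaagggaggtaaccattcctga

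Both strands were searched for HNF4A letters (CAAAGTCCA, CAAAGGTCA and the shorter AGGTCA), FOXA letters (the forkhead core TGTTTAC with its close variants TGTTTGC as well as TATTTAC), HNF1 letters (its full palindromic consensus and the shorter GTTAAT) and C/EBP letters (TTGCGCAA and the looser TTGCNNAA). AGGTCA is contained in CAAAGGTCA, GTTAAT in the full HNF1 consensus and TTGCGCAA in TTGCNNAA. Fgg held AGGTCA on its own strand, 196 to 201 bases before the start, a match found in 14.0% of 32851 RefSeq promoters over the same 250 bases. The upstream sequence of Fgb held TATTTAC on the opposite strand, 99 to 105 bases before the start, which occurred in 2.73% of promoters. Fga and Fgb each held GTTAAT on the opposite strand, at 38 to 43 and at 24 to 29 bases before the start, against 6.43% of promoters. Each of these genes also held TTGCNNAA, Fga at 128 to 135 bases on the opposite strand and Fgb at 73 to 80 bases on its own strand, against 9.56% of promoters. None of the other letters searched was found in these 3 sequences. These matches describe letters in sequence and are not evidence of binding.

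At the cluster, peaks of both factors were packed into 50.9 kb between 82806967 and 82857901, from below the start of Fgg to beyond the start of Fgb. Overlapping peaks merged into 12 sites: 5 with both factors, 4 with HNF4A alone and 3 with FOXA2 alone. The authors gave each peak a whole-number score that no source used here defines, so a score is read only against its own list. Ranks below run from the highest score down, and tied peaks have their mean rank. HNF4A peaks in the window scored between 18 and 77, with a median of 42 against 23 over the whole list. FOXA2 peaks in the window scored between 11 and 109, with a median of 14 against 15 over the list.

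**Figure D1:**
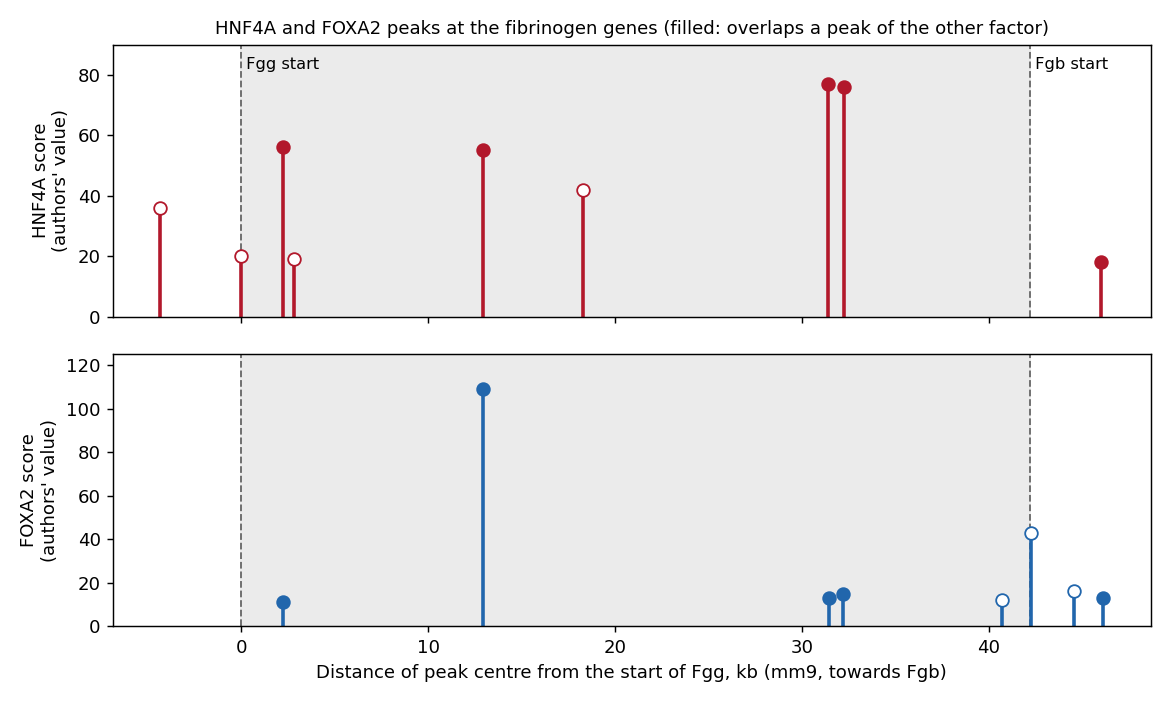
Authors' score of each HNF4A peak (upper panel) and FOXA2 peak (lower panel) against the distance of its centre from the start of Fgg in kb; filled symbols overlap a peak of the other factor and the shaded band is the gene span. The highest FOXA2 peak, of score 109, stands near 13 kb, and the highest HNF4A peaks, of scores 77 and 76, stand side by side near 32 kb.

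The site with the highest FOXA2 score lay between Fgg and Fgb, 12.9 kb from the start of Fgg. Its FOXA2 peak, at 82824310 to 82824717, scored 109, which is rank 8 of 9338 peaks and the second highest of 502 FOXA2 peaks on chromosome 3. The only higher FOXA2 peak of the chromosome, at 57148164 to 57148510, scored 127. The HNF4A peak over it, at 82824299 to 82824795, scored 55, rank 721 of 11703. All 408 bp of the FOXA2 peak lay inside the HNF4A peak, and the centres were 33.5 bp apart. Of 2879 overlapping pairs in the genome, 2 had scores at least this high for both factors, this site included. The limits are the scores of this site, picked as the highest FOXA2 peak of the window, so a low count follows partly from that choice. The 7 pairs with a FOXA2 score of 109 or more had a median HNF4A score of 43.

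The highest HNF4A scores of the cluster belonged to a close pair of peaks, each of which overlapped a FOXA2 peak no higher than its list's median. The first, at 82842824 to 82843225, scored 77 and ranked 201.5 in the HNF4A list, among the top 1.76%. Its neighbour, at 82843646 to 82844056, scored 76, rank 212, and began 420 bp farther on. They stood 31.4 and 32.2 kb from the start of Fgg and about 10 kb from the start of Fgb, on its transcribed side. FOXA2 peaks overlapped both, at 82842885 to 82843233 with a score of 13 (rank 6173) and at 82843665 to 82843919 with a score of 15 (rank 4713), and the centres were 34.5 and 59 bp from those of HNF4A. In the HNF4A list 509 consecutive peaks were at most 1000 bp apart, and in 2 of these pairs, this one included, both scores reached 76. That limit is the lower score of this pair, picked as the highest of the window, so a low count follows partly from that choice. The 104 shared pairs with an HNF4A score of 76 or more had a median FOXA2 score of 27.5 (interquartile range 15 to 40.2), and in 29 of them FOXA2 was at 15 or lower.

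Another strong HNF4A peak lay just downstream of the start of Fgg and had the weakest FOXA2 partner possible. At 82813602 to 82814069, 2.24 kb from that start, HNF4A scored 56 (rank 683). The FOXA2 peak at 82813578 to 82814042 scored 11, the lowest value of its list, at which 16.5% of FOXA2 peaks stood. The peaks overlapped by 441 bp and their centres were 25.5 bp apart. A second HNF4A peak followed 252 bp farther, at 82814322 to 82814521, with a score of 19 (rank 8308.5) and no overlap with FOXA2. It was 200 bp wide, the smallest width in the list, and ended 2.92 kb past the start of Fgg.

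Over the starts of Fgg and Fgb, each factor had a peak where the other had none. By the GRCm38.p6 spacing from Fgg, the start of Fga lay under an HNF4A peak of score 42 that overlapped no FOXA2 peak. An HNF4A peak of score 20 (rank 7582.5), at 82811332 to 82811836, reached 268 bp upstream and 236 bp downstream of the start of Fgg. The nearest FOXA2 peak was 1741 bp away. At the start of Fgb a FOXA2 peak of score 43 (rank 490), at 82853677 to 82854009, reached 209 bp upstream and 123 bp downstream, and the nearest HNF4A peak was 3354 bp away. The HNF4A peak at Fgg was thus in the lower part of its list, with 67.6% of HNF4A peaks as high or higher, and the FOXA2 peak at Fgb was in the top 5.44% of its list. The starts of Fgg and Fgb are known here to about 100 bp, which is less than the reach of the peaks over them on either side. The TATTTAC of Fgb shown above, 99 to 105 bases before its start, lies within the upstream reach of the FOXA2 peak. The AGGTCA of Fgg, 196 to 201 bases before its start, is too close to the edge of the HNF4A peak to be placed at that precision.

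The other single-factor sites were also divided along the cluster. HNF4A alone was found at 82806967 to 82807569, 4.33 kb upstream of Fgg, with a score of 36 (rank 2419.5), and at 82829560 to 82830262, 18.3 kb from the start of Fgg, with a score of 42 (rank 1647). The peak of score 42, which by the GRCm38.p6 spacing lay over the start of Fga, was 703 bp wide. Of all HNF4A peaks, 7.13% were at least as wide. FOXA2 alone was found at 82852093 to 82852520, 1.49 kb downstream of the start of Fgb, with a score of 12 (rank 7195.5), and at 82855968 to 82856331, 2.35 kb upstream of Fgb, with a score of 16 (rank 4196). All 4 sites with HNF4A alone therefore lay in the part of the cluster nearer the start of Fgg, and all 3 with FOXA2 alone had centres at most 2.35 kb from the start of Fgb. These sites are few, and shared sites lay towards both ends. Some scores were near the list minimum, with HNF4A at 19 and 20 against 16 and FOXA2 at 12 against 11. The HNF4A peak of score 19 was 279 bp from a FOXA2 peak, and the FOXA2 peak of score 16 was 1032 bp from an HNF4A peak. In the whole lists, 61.4% of HNF4A peaks scoring 42 or more and 34.6% of FOXA2 peaks scoring 43 or more had no partner.

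Beyond Fgb, towards Plrg1, the last site held both factors at low scores. HNF4A at 82857364 to 82857804 scored 18 (rank 9126.5) and FOXA2 at 82857568 to 82857901 scored 13 (rank 6173). The peaks overlapped by 237 bp, and their centres were 150.5 bp apart, the widest separation of the 5 shared sites. No further HNF4A peak followed for 811 kb.

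**Figure D2:**
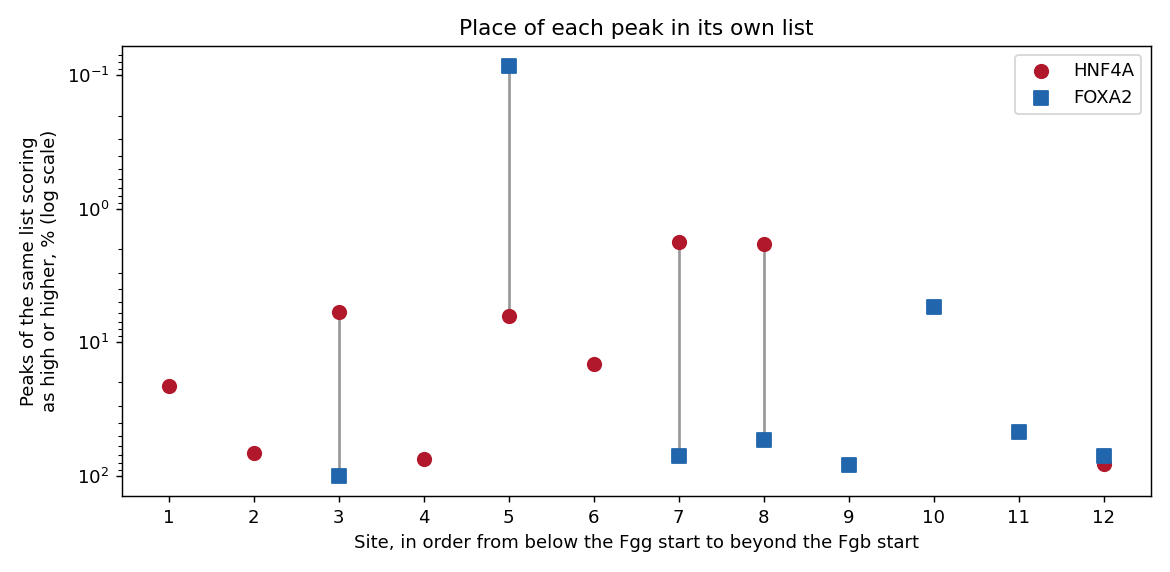
Percentage of peaks in the same list that score as high or higher, on a reversed log scale, for each of the 12 sites in order along the cluster; circles are HNF4A, squares are FOXA2 and a grey line joins both factors at a shared site. At sites 3, 7 and 8 HNF4A is in the top 6% of its list and FOXA2 is at or below the median score of its own. At site 5 FOXA2 is in the top 0.0857%.

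Peaks of the cluster were shared between the factors at 5 of 9 HNF4A peaks, 55.6% (exact Clopper-Pearson 95% interval 21.2 to 86.3%), against 24.4% of the whole HNF4A list and 25.0% of the 648 HNF4A peaks on chromosome 3. For FOXA2 it was 5 of 8 peaks, 62.5% (24.5 to 91.5%), against 30.7% of the whole list and 32.5% of the 502 FOXA2 peaks on chromosome 3. The intervals cover counting error only and contain the shares of the whole lists. They treat peaks as independent, although some lie close together and the same 5 overlaps enter both counts. Whether common sites are more frequent at fibrinogen was not tested. By score, 6 of 9 HNF4A peaks stood at or above the median of their list, against 52.5% of all HNF4A peaks, and 4 were in the top 10%, with 47 or more, against 10.6%. Of the FOXA2 peaks, 4 of 8 stood at or above their list's median, against 53.5% of all FOXA2 peaks, and 2 were in the top 10%, with 34 or more, against 10.2%. The FOXA2 scores of the cluster thus included 2 high peaks, of 109 and 43, and reached down to the minimum of the list, 11.

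The density of peaks in the window was compared with that over chromosome 3, which the lists cover for 155 Mb between the first and the last region. HNF4A peaks stood at 75 per Mb in the window against 4.19 per Mb over the chromosome, a ratio of 17.9 (exact Poisson 95% interval of the window's count 8.19 to 34, counting error only). FOXA2 peaks stood at 66.7 per Mb in the window against 3.24 per Mb over the chromosome, a ratio of 20.5 (8.87 to 40.5). At the density of the chromosome, 0.503 HNF4A and 0.389 FOXA2 peaks would fall in a stretch of this length. All but 2 HNF4A peaks and 2 FOXA2 peaks lay in the gene span of 42.2 kb, where the ratios were 39.6 and 43.8.

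When chromosome 3 was divided into 1288 windows of the same length, starting from this one, the fibrinogen window held the most peaks of both factors together. It held 17 peaks, against at most 13 in any other window and a median of 0. A count of at least 9 HNF4A peaks was reached by 2 windows, or 0.155%, and so was a count of at least 8 FOXA2 peaks, again 0.155%. The other window with 9 HNF4A peaks, at 151770575 to 151890575, held 2 FOXA2 peaks. The other window with 8 FOXA2 peaks, at 92010077 to 92130077, held no HNF4A peak and 16 input regions, and its highest FOXA2 score was 21. The fibrinogen window also held the most shared peaks, 5 of each factor, against at most 4 elsewhere on the chromosome. Its place depends on where windows begin: with windows shifted by 60 kb the cluster was cut by a boundary. The window on the Fgg side then held 7 HNF4A peaks, rank 4 on the chromosome, and 2 FOXA2 peaks, rank 39. The window on the Fgb side held 4 HNF4A peaks, rank 19, and 7 FOXA2 peaks, rank 2. With 11 peaks of both factors together, the Fgb side ranked 2, and the Fgg side, with 9, ranked 5.

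**Figure D3:**
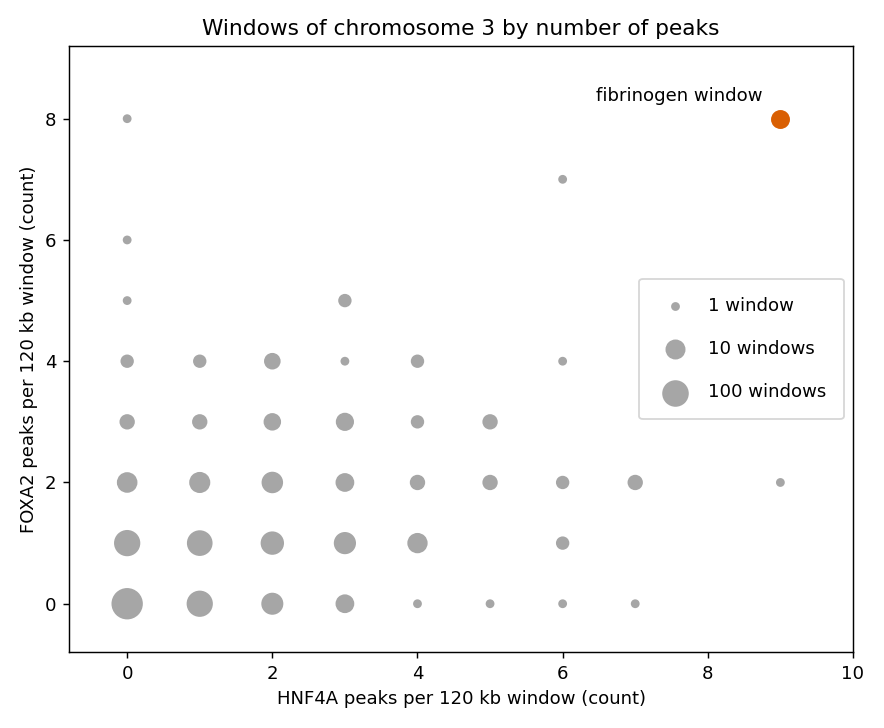
Number of HNF4A peaks (x axis) and FOXA2 peaks (y axis) in each of 1288 windows of 120 kb on chromosome 3; the area of a grey point grows with the number of windows at that pair of counts, and the orange point is the fibrinogen window alone. It stands at 9 and 8 peaks, apart from the other windows.

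Across all nuclear chromosomes, divided from the first region of each, 13 of 21406 windows held at least 17 peaks of both factors together, and the fullest held 29. At least 9 HNF4A peaks were held by 18 windows and at least 8 FOXA2 peaks by 33. Both counts at once, which are the fibrinogen window's own, were reached by 2 windows. These were a window over the fibrinogen cluster, from 82802229 to 82922229 in this division, and a window of chromosome 5, from 90826218 to 90946218. The window of chromosome 5 held 17 peaks of HNF4A and 12 of FOXA2. These counts also depend on where windows begin, since a cluster cut by a boundary is counted in parts.

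Over 1.92 Mb around the cluster, peaks were about as frequent as over the chromosome, but they were unevenly placed. The nearest 16 windows, 8 on either side and 1.92 Mb in all, held 8 HNF4A and 5 FOXA2 peaks. This is 4.17 HNF4A peaks per Mb against 4.19 over chromosome 3, and 2.6 FOXA2 peaks per Mb against 3.24. Of these windows 11 held no peak, 68.8% against 65.7% over the chromosome. Below the cluster the nearest FOXA2 peak, at 80514358 to 80514675, was 2300 kb away. This was among the 9 longest of 501 intervals between FOXA2 peaks on the chromosome, whose median was 97.6 kb. On the Plrg1 side, the 811 kb without an HNF4A peak was exceeded or equalled by 7.26% of 647 intervals, whose median was 52 kb. The remaining intervals were ordinary, at 55.9 kb below the cluster for HNF4A and 86.7 kb above it for FOXA2. Input regions lay far off, 26.4 Mb below and 9.15 Mb above the peaks of the cluster, so no member stood beside a region called in input chromatin. Chromosome 3 held only 32 input regions. At that density 0.0248 would fall in the window, so their absence does not set the cluster apart.

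**Figure D4:**
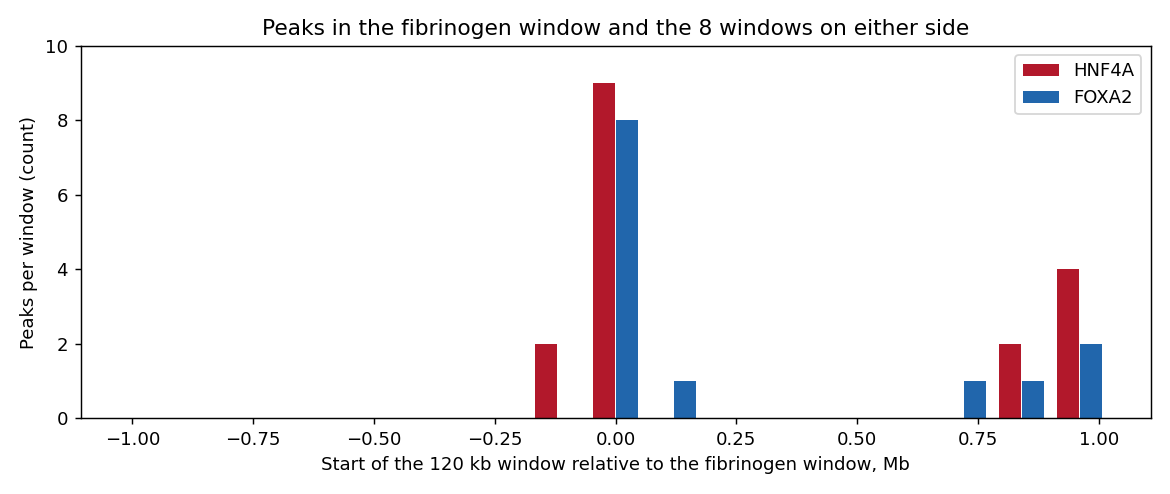
Number of HNF4A and FOXA2 peaks per 120 kb window against the start of that window relative to the fibrinogen window, in Mb. The fibrinogen window holds 9 and 8 peaks, and the windows on either side hold at most 4 and 2.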

How the data were processed

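For each library the authors deposited a headerless list of regions with chromosome, start, end and score. No source used here says what the deposited score measures or how it was scaled, nor names the aligner, the peak caller, its threshold or the sequencing depth. Coordinates are on mm9 (submitters' processing notes). Positions were read as 1-based with both ends included, which makes the shortest region 200 bp, and 1 line without a region was skipped.

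Peaks of HNF4A and FOXA2 counted as shared from 1 bp of overlap. The described items were Fga, Fgb, Fgg, their flanking genes and every region of the window; members and lists were chosen with earlier results of these data known. Other coagulation genes were not analysed here, since they need an mm9 annotation. Lists end at thresholds, so a peak missing from a list does not show that the factor was absent. Alternatives concerned score, extent, overlap and window placement. Overlap and window counting were tested on simulated data. Computations used Python 3.11.15 with pandas 2.3.3, numpy 2.4.6 and scipy 1.17.1; plots used matplotlib 3.10.9.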

Additional observations from a re-analysis of the deposited data

How the results depend on the processing

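Of 28 alternative values, 20 stayed close to those reported and 8 moved, where a count within a factor of 1.5 was held close. No density ratio turned below 1. With peaks at or above the median score of their list, 6 HNF4A peaks remained in the window in place of 9, which was held close. Under the same setting 4 FOXA2 peaks remained in place of 8, and 2 shared peaks of each factor in place of 5. The FOXA2 rank of the window on chromosome 3 was then 2. That setting removes peaks by construction. Restricted to the gene span, the density ratio was 39.6 for HNF4A and 43.8 for FOXA2. Shifting the windows cut the cluster. The window on the Fgg side then had rank 4 for HNF4A and rank 39 for FOXA2. That on the Fgb side had rank 19 for HNF4A and rank 2 for FOXA2. No paired analysis was possible because each group has 1 library. The unknown depth of the libraries limits every absent peak and every low score.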

Other observations

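A few other regions shared a property with the fibrinogen cluster, given here as values. The other close pair of HNF4A peaks that both reached a score of 76 lay on chromosome 1, with a peak at 193463994 to 193464379 (score 91) and its neighbour, of score 77, 871 bp farther on. The other shared pair with scores of at least 55 for HNF4A and 109 for FOXA2 lay on chromosome 9, with an HNF4A score of 75 and a FOXA2 score of 149 at 42083154 to 42083500. On chromosome 3 the window with the next most peaks, at 10289396 to 10409396, held 6 HNF4A and 7 FOXA2 peaks, of which 1 of each was shared, against 5 of each in the fibrinogen window. The window at 144210512 to 144330512 held fewer peaks, 6 for HNF4A and 4 for FOXA2, of which 4 of each were shared.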
